A study of Arabidopsis thaliana with 30 samples.

Results

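A set of 5 genes for lipid droplet proteins was followed through Arabidopsis seed development: the oleosin genes OLEO3 (AT5G51210), AT3G01570, AT3G18570 and AT2G25890, and AT2G47780, a gene for a lipid droplet-associated protein. They were taken by annotation, with earlier results of these data known, and are 5 of the 13356 genes tested on an Affymetrix expression array. Each had 1 probe set. RNA came from developing seeds dissected out of siliques at 8 and 12 days after flowering (DAF) in 5 genotypes. The mutant fus3-3 was compared with its wild type Col-0, and the mutants lec1-1 and lec2-1 with their wild type WS. Each of the 10 groups of genotype and age had 3 arrays, described by the submitters as biological replicates from separate batches of plants. The titles number the Col-0 arrays of 12 DAF in 2 parts, unlike those of the other groups, so results that rest on them were also computed with these arrays averaged to 1 replicate. The labels name no transgene and no chemical treatment. Plants grew at 22 °C with 16 h of light a day.

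Plant seeds store oil as triacylglycerol in lipid droplets, also called oil bodies. Oleosins are small structural proteins that anchor in the droplet surface by a long hydrophobic hairpin and keep neighbouring droplets from fusing while the seed dries. FUS3 and LEC2 are transcription factors with a B3 DNA-binding domain, LEC1 belongs to the NF-Y complex of DNA-binding subunits, and all are known as activators of seed maturation. AT2G47780 is listed as lipid droplet-associated rather than as an oleosin and is described apart.

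All values are log2 signals, so a difference of 1 is a 2-fold change, and each probe set was compared only with itself across arrays. A change was called when the adjusted p from limma, over all genes tested, was below 0.05 and the change was at least 2-fold; only called changes are described as rises or falls. The array medians ran from 4.30 to 4.71, the lower quartiles from 2.47 to 2.62 and the highest signals from 15.27 to 15.71, and replicate arrays correlated at 0.984 to 0.996. Probe sets of the mutated genes themselves are not analysed here, so the genotype labels are taken as given. The arrays measured whole seeds, in which fewer cells of a type and less RNA per cell cannot be told apart. The 3′ to 5′ signal difference of the actin control probe sets, a measure of RNA quality, was 4.83 to 4.90 in Col-0 at 12 DAF and 5.40, 5.55 and 6.78 in fus3-3 at 12 DAF, with every other group between 5.24 and 6.08. That of the GAPDH probe sets ran the other way at 12 DAF, with 2.07 to 2.74 in Col-0 and 1.71 to 2.08 in fus3-3, and 2.19 to 2.31 in WS and 1.84 to 1.88 in lec1-1. The part of RNA quality in the fus3-3 and lec1-1 results was not tested.

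OLEO3 signal was high in every group and lower in fus3-3 and lec1-1 seeds, most of all at 12 DAF. At 8 DAF the arrays read 14.45, 14.37 and 14.36 in Col-0 and 13.82, 13.17 and 13.46 in fus3-3. At 12 DAF they read 13.54, 12.92 and 13.72 in Col-0 against 11.69, 10.98 and 10.40 in fus3-3. All fus3-3 arrays lay below all Col-0 arrays of their age. The difference at 8 DAF, −0.91 ± 0.32 (SE, n = 3 a group) with a 95% interval of −1.64 to −0.19, was not called (limma adjusted p = 0.093), whereas at 12 DAF OLEO3 was 5.16-fold lower in fus3-3 (−2.37 ± 0.32, adjusted p = 0.00027). In the WS background, the 8 DAF arrays read 14.48, 14.54 and 14.56 in WS, 13.17, 12.87 and 12.97 in lec1-1, and 14.19, 14.30 and 14.29 in lec2-1. At 12 DAF they read 13.93, 13.99 and 14.17 in WS, 11.34, 11.59 and 11.62 in lec1-1, and 14.02, 13.92 and 13.84 in lec2-1. The lec1-1 arrays stood below all WS and lec2-1 arrays at each age, while lec2-1 overlapped WS at 12 DAF. OLEO3 was 2.87-fold lower in lec1-1 at 8 DAF (−1.52 ± 0.09, adjusted p = 1.7e-08) and 5.70-fold lower at 12 DAF (−2.51 ± 0.09, adjusted p = 3.5e-11). In lec2-1 the changes of −0.27 (95% interval −0.46 to −0.07) and −0.10 (−0.30 to 0.09) were not called. The OLEO3 signal came within 0.98 of the highest signal on an array, and that of AT3G01570 within 1.14. Compression of differences at that level was not tested for either gene.

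AT3G01570, the second oleosin with signal near the top of the scale, was lower in fus3-3 and lec1-1 at both ages and by similar amounts. The 8 DAF arrays read 14.04, 14.05 and 13.80 in Col-0 and 13.03, 12.37 and 12.80 in fus3-3. At 12 DAF they read 14.33, 14.44 and 14.46 in Col-0 and 13.08, 12.77 and 12.36 in fus3-3. No fus3-3 array reached a Col-0 array. The gene was 2.35-fold lower in fus3-3 at 8 DAF (−1.23 ± 0.20, adjusted p = 0.0027) and 3.18-fold lower at 12 DAF (−1.67 ± 0.20, adjusted p = 0.00012). The WS arrays read 14.19, 14.23 and 14.43 at 8 DAF and 14.22, 14.29 and 14.15 at 12 DAF. Those of lec1-1 read 13.16, 12.94 and 12.68 and then 12.57, 12.62 and 12.79. Those of lec2-1 read 13.95, 13.69 and 13.78 and then 14.12, 14.32 and 14.21, below every WS array at 8 DAF and overlapping WS at 12 DAF. The falls in lec1-1 were 2.56-fold at 8 DAF (−1.35 ± 0.11, adjusted p = 4.7e-07) and 2.95-fold at 12 DAF (−1.56 ± 0.11, adjusted p = 3.6e-08). In lec2-1 the change of −0.48 ± 0.11 at 8 DAF passed the adjusted p (0.012) but not the 2-fold minimum, and at 12 DAF the 95% interval ran from −0.24 to 0.23.

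AT3G18570 was the oleosin with the largest difference between mutant and wild type, and its signal rose with age in every genotype except fus3-3. Its 8 DAF arrays read 9.89, 9.66 and 9.40 in Col-0 and 8.97, 7.89 and 8.27 in fus3-3. At 12 DAF they read 11.98, 11.92 and 11.61 in Col-0 and 8.73, 8.01 and 7.91 in fus3-3. The fus3-3 arrays of both ages thus shared one range, below every Col-0 array. The fall in fus3-3 was 2.41-fold at 8 DAF (−1.27 ± 0.30, adjusted p = 0.017) and 12.3-fold at 12 DAF (−3.62 ± 0.30, adjusted p = 9.9e-06). The 8 DAF call did not hold without Col-0 replicate 1 (adjusted p = 0.064), Col-0 replicate 2 (0.056), fus3-3 replicate 2 (0.053) or fus3-3 replicate 3 (0.055), nor with only the 6 arrays compared (0.054). WS read 10.44, 10.39 and 10.43 at 8 DAF and 11.92, 12.08 and 12.21 at 12 DAF. The lec1-1 arrays read 8.60, 8.65 and 8.20 at 8 DAF and 9.54, 9.51 and 9.56 at 12 DAF. The lec2-1 arrays read 9.59, 9.37 and 9.37 at 8 DAF and 11.39, 11.62 and 11.24 at 12 DAF, between lec1-1 and WS at each age with no overlap. The gene fell 3.83-fold in lec1-1 at 8 DAF (−1.94 ± 0.12, adjusted p = 2.5e-08) and 5.78-fold at 12 DAF (−2.53 ± 0.12, adjusted p = 4.6e-10). In lec2-1 it was lower by 0.98 ± 0.12 at 8 DAF (adjusted p = 0.00015) and by 0.66 ± 0.12 at 12 DAF (adjusted p = 0.00099), both short of 2-fold; without lec2-1 replicate 1 the 8 DAF difference passed it (−1.05).

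AT2G25890 was the oleosin with the steepest rise from 8 to 12 DAF in both wild types, and at 8 DAF it was higher in fus3-3 than in Col-0. The 8 DAF arrays read 8.49, 8.41 and 8.01 in Col-0 and 10.57, 9.19 and 9.72 in fus3-3. At 12 DAF they read 12.32, 12.47 and 12.22 in Col-0 and 10.95, 10.46 and 10.31 in fus3-3. The fus3-3 arrays therefore lay above all Col-0 arrays at 8 DAF and below all of them at 12 DAF. AT2G25890 was 2.87-fold higher in fus3-3 at 8 DAF (1.52 ± 0.31, adjusted p = 0.0097) and 3.39-fold lower at 12 DAF (−1.76 ± 0.31, adjusted p = 0.0016). The fus3-3 arrays at 8 DAF spread widely (SD 0.69), and the early rise was not called when only these 6 arrays were fitted (adjusted p = 0.058). WS read 9.44, 9.34 and 9.63 at 8 DAF, lec1-1 9.25, 9.12 and 9.16, and lec2-1 9.27, 9.18 and 9.39. At 12 DAF WS read 12.34, 12.28 and 12.22, lec1-1 10.84, 10.94 and 11.13, and lec2-1 12.13, 12.15 and 11.90. At 8 DAF the groups lay close together, with lec1-1 just below WS, and at 12 DAF lec1-1 stood well below both. The change in lec1-1 was −0.30 ± 0.09 at 8 DAF (adjusted p = 0.026, under 2-fold) and a 2.47-fold fall at 12 DAF (−1.31 ± 0.09, adjusted p = 3.6e-08). Neither change in lec2-1 was called, with 95% intervals of −0.39 to 0.01 at 8 DAF and −0.42 to −0.02 at 12 DAF.

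**Figure D1:**
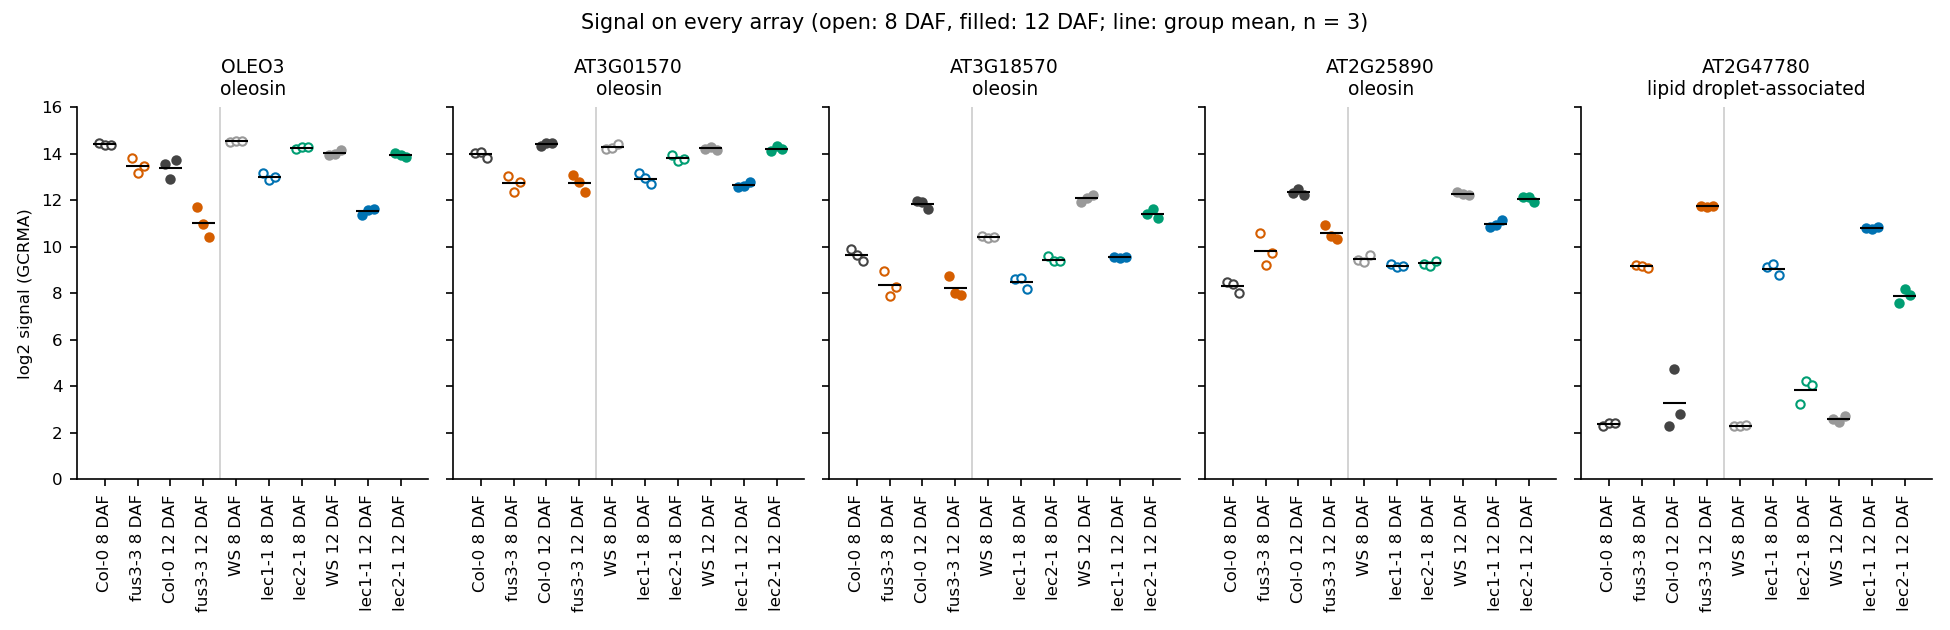
Log2 signal of the 5 genes on every array, 1 panel a gene, with the 10 groups along the horizontal axis, open points for 8 DAF, filled points for 12 DAF and a line at each group mean of 3 arrays. OLEO3 and AT3G01570 stay above 10 everywhere, AT3G18570 and AT2G25890 move with age, and AT2G47780 runs from 2.28 in WS to 11.75 in fus3-3.

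AT2G47780 had a low signal in both wild types and a high one in fus3-3 and lec1-1 seeds. At 8 DAF its arrays read 2.31, 2.43 and 2.42 in Col-0 and 2.28, 2.28 and 2.35 in WS, below the lower quartile of each array. In the mutants of that age they read 9.22, 9.18 and 9.09 in fus3-3, 9.12, 9.24 and 8.77 in lec1-1, and 3.26, 4.21 and 4.07 in lec2-1. Every mutant array lay above every wild-type array, and lec2-1 far below the other mutants. The rises were 110-fold in fus3-3 (6.78 ± 0.49, adjusted p = 2.8e-05), 107-fold in lec1-1 (6.74 ± 0.21, adjusted p = 4.3e-11) and 2.91-fold in lec2-1 (1.54 ± 0.21, adjusted p = 0.00036). At 12 DAF the arrays read 2.30, 4.74 and 2.82 in Col-0, 2.61, 2.47 and 2.74 in WS, 11.75, 11.73 and 11.75 in fus3-3, 10.80, 10.76 and 10.85 in lec1-1, and 7.57, 8.18 and 7.91 in lec2-1. Col-0 replicate 2 stood above the other wild-type arrays, and the mutants did not overlap with the wild types or with each other. The differences were 8.46 ± 0.49 in fus3-3 (adjusted p = 1.2e-06), 8.20 ± 0.21 in lec1-1 (adjusted p = 2.4e-12) and 5.28 ± 0.21 in lec2-1 (adjusted p = 3.9e-10). Without Col-0 replicate 2 the fus3-3 difference at 12 DAF was 9.18. The wild-type signal lay at the low end of the scale, where signal and background are hard to separate, so the folds of this gene depend on how background was corrected.

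Set against all genes tested, the members were called as follows. As they were chosen with earlier results of these data known, the shares describe them and are no independent test. In fus3-3 at 8 DAF, 4 of the 5 genes were called, where 8.27% of all genes were (4.03% higher and 4.25% lower): AT3G01570 and AT3G18570 lower, AT2G25890 and AT2G47780 higher. In lec1-1 at 8 DAF, 4 of 5 were called, against 10.5% of all genes (4.75% higher and 5.77% lower), with OLEO3, AT3G01570 and AT3G18570 lower and AT2G47780 higher. In lec2-1 at 8 DAF only AT2G47780 was called, 1 of 5 against 2.68% of all genes (1.60% higher and 1.08% lower). At 12 DAF all 5 were called in fus3-3, against 23.4% of all genes (11.9% higher and 11.5% lower). All 5 were called in lec1-1 too, against 20.3% (10.4% higher and 9.93% lower), in each mutant with the 4 oleosins lower and AT2G47780 higher. In lec2-1 at 12 DAF, AT2G47780 alone was called, 1 of 5 against 6.39% (5.08% higher and 1.32% lower). The median change of the 4 oleosins was −1.07 in fus3-3, −1.44 in lec1-1 and −0.37 in lec2-1 at 8 DAF, and −2.07, −2.04 and −0.16 at 12 DAF. Over all genes the median lay between −0.11 and 0.01 in these 6 comparisons, those with lec1-1 and lec2-1 sharing the WS arrays.

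**Figure D2:**
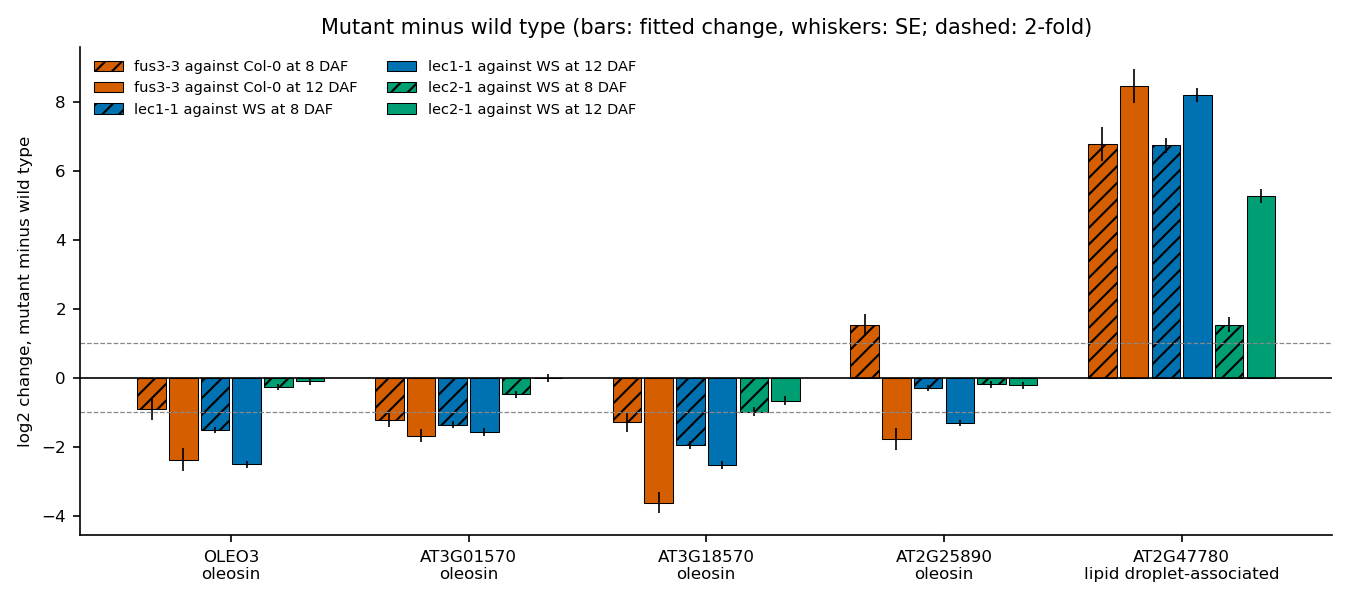
Fitted log2 change of each gene, mutant minus wild type (vertical axis), for fus3-3, lec1-1 and lec2-1 at 8 DAF (hatched) and 12 DAF (plain), with SE whiskers and dashed lines at 2-fold. The oleosin bars of fus3-3 and lec1-1 point down, except AT2G25890 in fus3-3 at 8 DAF (1.52), and all 6 bars of AT2G47780 point up, from 1.54 to 8.46.

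From 8 to 12 DAF the oleosins took different courses. In Col-0, 3 of the 5 genes changed, against 18.1% of all genes: AT2G25890 rose 16.3-fold (4.03 ± 0.31, limma adjusted p = 1.1e-05), AT3G18570 rose 4.56-fold (2.19 ± 0.30, adjusted p = 0.00036) and OLEO3 fell 2.01-fold (−1.01 ± 0.32, adjusted p = 0.039). In WS, 2 of 5 changed, against 15.3%: AT2G25890 rose (2.81 ± 0.09, adjusted p = 2.6e-11) and AT3G18570 rose 3.14-fold (1.65 ± 0.12, adjusted p = 6.2e-08). Thus the late-rising oleosins were AT2G25890 and AT3G18570 in both wild types. OLEO3 in WS was lower by 0.49 ± 0.09 at 12 DAF (adjusted p = 0.00041, under 2-fold), and AT3G01570 was not called in either wild type (0.45 in Col-0 and −0.06 in WS). AT2G47780 was called in neither, although in Col-0 it was without replicate 1 of 12 DAF (1.39, adjusted p = 0.046). The OLEO3 fall in Col-0 was not called without any 1 of the 3 Col-0 arrays of 8 DAF (adjusted p 0.087 to 0.090), nor without replicate 1 (0.064) or replicate 2 (0.126) of 12 DAF, nor with the 12 DAF arrays averaged to 1 replicate (0.163), and it was under 2-fold after renewed quantile normalization (−0.99) or centring on reference genes (−0.80).

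In fus3-3 seeds, 2 of 5 genes changed with age, against 9.05% of all genes. OLEO3 fell 5.50-fold (−2.46 ± 0.32, adjusted p = 0.00071) and AT2G47780 rose 5.98-fold (2.58 ± 0.49, adjusted p = 0.0066). The rise of AT3G18570 and AT2G25890 seen in the wild type was not called there: AT3G18570 moved by −0.16 (95% interval −0.83 to 0.51) and AT2G25890 by 0.74 (0.03 to 1.46), although AT2G25890 was called without fus3-3 replicate 1 of 8 DAF (1.11, adjusted p = 0.016). In lec1-1, 4 of 5 changed, against 11.1%: OLEO3 fell 2.80-fold (−1.49 ± 0.09, adjusted p = 1.8e-08), and AT3G18570 (1.06 ± 0.12), AT2G25890 (1.80 ± 0.09) and AT2G47780 (1.76 ± 0.21) rose. The AT3G18570 rise in lec1-1 was under 2-fold without lec1-1 replicate 3 of 8 DAF (0.91). In lec2-1, 3 of 5 changed, against 13%: AT3G18570 rose 3.91-fold, AT2G25890 6.87-fold and AT2G47780 16.4-fold.

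Whether the age change itself differed between mutant and wild type was tested as an interaction. Between fus3-3 and Col-0, 3 of 5 genes differed, against 15.8% of all genes. AT2G25890 rose less in fus3-3 by 3.29 ± 0.45 on the log2 scale (difference −3.29, adjusted p = 0.00078), AT3G18570 differed by −2.35 ± 0.42 (adjusted p = 0.0035) and OLEO3 by −1.45 ± 0.45 (adjusted p = 0.0496). The OLEO3 difference was not called with a robust prior variance (adjusted p = 0.054), with the Col-0 arrays of 12 DAF averaged (0.129) or in 9 of the 12 fits that each left out 1 array (adjusted p 0.078 to 0.108). The AT2G47780 difference of 1.68 ± 0.70 was not called (adjusted p = 0.14), but was without Col-0 replicate 2 of 12 DAF (2.41, adjusted p = 5.7e-05). At the same size it was called with all 30 arrays in 1 fit (adjusted p = 0.016) and among genes above the 40th percentile of signal (0.047). With the Col-0 arrays of 12 DAF averaged, the AT2G47780 difference was again 1.68. That average leaves out the spread of these arrays (SD 1.29), so no call is read from it. Between lec1-1 and WS, 2 of 5 differed, against 16.0%: AT2G25890 by −1.01 ± 0.13 (adjusted p = 4.6e-05) and AT2G47780 by 1.46 ± 0.30 (adjusted p = 0.0017). OLEO3 in lec1-1 differed by −0.99 ± 0.13 (adjusted p = 3.8e-05), so that it and AT2G25890 lay on either side of the 2-fold minimum by less than their SE. Leaving out 1 array at a time moved OLEO3 past it in 7 fits and AT2G25890 below it in 6. Between lec2-1 and WS, AT2G47780 alone differed, 1 of 5 against 7.15%, by 3.74 ± 0.30 (adjusted p = 1.2e-06). The 3 oleosins other than AT3G01570 had 95% intervals of −0.11 to 0.43 (OLEO3), −0.04 to 0.68 (AT3G18570) and −0.31 to 0.25 (AT2G25890) there, and AT3G01570 differed by 0.47 ± 0.16 (adjusted p = 0.049, under 2-fold).

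**Figure D3:**
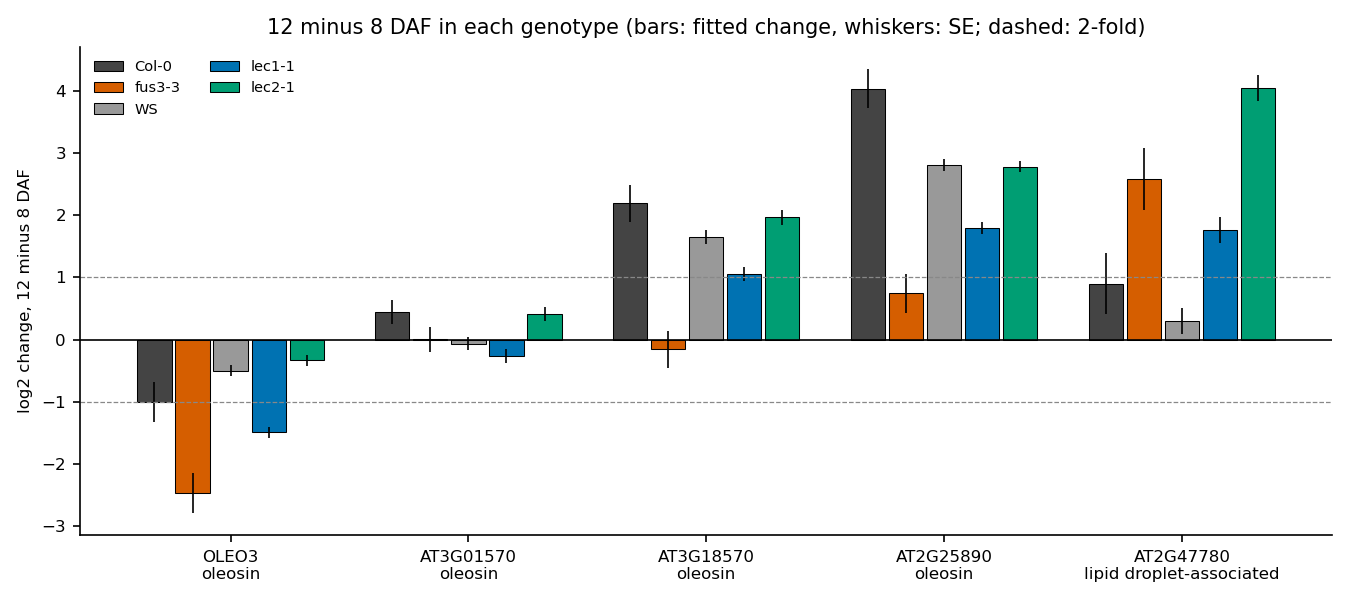
Fitted log2 change from 8 to 12 DAF (vertical axis) of each gene in Col-0, fus3-3, WS, lec1-1 and lec2-1, with SE whiskers and dashed lines at 2-fold. AT2G25890 ranges from 0.74 in fus3-3 to 4.03 in Col-0, AT3G18570 is near 0 only in fus3-3 (−0.16), and OLEO3 is below 0 in all 5 genotypes.

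The 2 lec mutants differed from each other in the oleosins, mainly at 12 DAF. At 8 DAF, 2 of 5 genes were called in lec1-1 against lec2-1, where 5.07% of all genes were: OLEO3 was 2.38-fold lower (−1.25 ± 0.09, adjusted p = 2.7e-07) and AT2G47780 36.7-fold higher (5.20 ± 0.21, adjusted p = 1.5e-09) in lec1-1. AT3G01570 (−0.88 ± 0.11) and AT3G18570 (−0.96 ± 0.12) were lower in lec1-1 by less than 2-fold, though AT3G18570 passed 2-fold without lec1-1 replicate 1 (−1.02) or 2 (−1.05) or lec2-1 replicate 3 (−1.0004). At 12 DAF all 5 were called, against 11.0%. OLEO3 was 5.30-fold, AT3G01570 2.94-fold, AT3G18570 3.67-fold and AT2G25890 2.12-fold lower in lec1-1, with no overlap of arrays, and AT2G47780 was 7.57-fold higher. The AT2G25890 difference was under 2-fold after centring on reference genes (−0.84).

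The effect of fus3-3 against Col-0 was also set against the effects of the lec mutants against WS, in 1 fit of all 30 arrays. At 8 DAF, 1 of 5 genes differed between the fus3-3 and lec1-1 effects, against 4.99% of all genes: AT2G25890, by 1.82 ± 0.31 (adjusted p = 0.00048). For AT2G47780 the 2 effects were within −1.03 to 1.11 of each other (95% interval). Between the fus3-3 and lec2-1 effects at 8 DAF, 2 of 5 differed, against 5.47%, AT2G25890 by 1.71 ± 0.31 and AT2G47780 by 5.24 ± 0.51. At 12 DAF, 1 of 5 differed between fus3-3 and lec1-1, against 8.33%: AT3G18570, lower in fus3-3 by a further −1.09 ± 0.30 (adjusted p = 0.015). That difference was under 2-fold without fus3-3 replicate 2 (−0.98) or replicate 3 (−0.93) and was not called with the Col-0 arrays of 12 DAF averaged to 1 replicate (adjusted p = 0.073). The intervals of the other 3 oleosins ran from −0.51 to 0.79 (OLEO3), −0.57 to 0.35 (AT3G01570) and −1.10 to 0.18 (AT2G25890). All 5 differed between the fus3-3 and lec2-1 effects at 12 DAF, against 18.7%, the oleosins by −2.96 to −1.54 and AT2G47780 by 3.18 ± 0.51. Background and mutation differ together in these comparisons. The sources used here do not say whether the 2 sets of arrays were normalized together, and every comparison across them takes their signals as comparable.

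Between the wild types, with the same limit, at 8 DAF 1 of 5 genes was called, against 6.43% of all genes: AT2G25890 was 2.25-fold higher in WS than in Col-0 (1.17 ± 0.22, adjusted p = 0.00048). AT3G18570 was higher in WS by 0.77 ± 0.21 (adjusted p = 0.013), under 2-fold. At 12 DAF, 0 of 5 were called by limma, against 5.59%, with 1 of 5 at an unadjusted p below 0.05; this was OLEO3, higher in WS by 0.64 ± 0.22 (adjusted p = 0.035, under 2-fold). For AT2G25890 the 95% interval at 12 DAF was −0.51 to 0.40. AT2G47780 differed by −0.68 ± 0.36 (adjusted p = 0.17), and was called lower in WS without Col-0 replicate 1 (−1.17, adjusted p = 0.019).

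Ordered by group mean over both sets, again with signals taken as comparable, the 5 genes spanned different ranges of log2 signal. OLEO3 fell from 14.53 ± 0.04 (SD, n = 3) in WS at 8 DAF to 11.02 ± 0.64 in fus3-3 at 12 DAF, and 4 of its 9 pairs of neighbouring groups overlapped. The 3 highest groups were WS, Col-0 and lec2-1 at 8 DAF, without overlap, and the lowest were lec1-1 and fus3-3 at 12 DAF, which overlapped. AT3G01570 spanned only 1.75 between group means, from 14.41 ± 0.07 in Col-0 at 12 DAF to 12.66 ± 0.12 in lec1-1 at 12 DAF. Its widest break lay between lec2-1 at 8 DAF (13.80 ± 0.13) and lec1-1 at 8 DAF (12.93 ± 0.24), and the 4 groups of fus3-3 and lec1-1 below the break overlapped neighbour with neighbour. AT3G18570 ran from 12.07 ± 0.14 in WS at 12 DAF to 8.22 ± 0.44 in fus3-3 at 12 DAF, and its 3 highest groups were WS, Col-0 and lec2-1 at 12 DAF. AT2G25890 ran from 12.34 ± 0.12 in Col-0 at 12 DAF to 8.31 ± 0.25 in Col-0 at 8 DAF, with all 5 groups of 12 DAF above all 5 of 8 DAF by mean. Of its 9 pairs of neighbouring groups 6 overlapped. Among them, fus3-3 at 8 DAF (9.83 ± 0.69) overlapped with fus3-3 at 12 DAF (10.57 ± 0.34) and with WS at 8 DAF (9.47 ± 0.15). AT2G47780 spanned 9.44, from 11.74 ± 0.02 in fus3-3 at 12 DAF to 2.31 ± 0.04 in WS at 8 DAF, in the order fus3-3 and lec1-1 at 12 DAF, fus3-3 and lec1-1 at 8 DAF, then lec2-1 at 12 DAF and at 8 DAF. The fus3-3 and lec1-1 groups of 8 DAF overlapped, as did lec2-1 at 8 DAF and Col-0 at 12 DAF. Among the 4 oleosins, fus3-3 replicate 1 was the highest array of its group at both ages.

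Across the 10 group means, each centred within its own set of wild type and mutants, the genes fell into different patterns. AT3G01570 correlated with OLEO3 at 0.75 and with AT3G18570 at 0.85, AT3G18570 with AT2G25890 at 0.70, and OLEO3 with AT2G25890 at −0.22. AT2G47780 correlated at −0.84 with OLEO3, −0.87 with AT3G01570, −0.63 with AT3G18570 and 0.07 with AT2G25890. These are descriptions over 10 groups that share arrays, wild types and normalization. Among 1458 genes (1459 for AT3G01570) whose group means spanned at least 2 log2 units in both sets, those most like each gene were AT1G03210, AT3G52110 and AT1G52670 for OLEO3 (r 0.98 to 0.99) and AT3G14360, AT3G10200 and AT3G22070 for AT3G01570 (0.98 to 0.99). For AT3G18570 they were AT5G66090, AT5G08430 and AT3G30460 (all 0.99), for AT2G25890 AT4G21020, AT2G21820 and AT1G31750 (0.98 to 0.99), and for AT2G47780 AT5G05880, AT5G55450 and AT4G25260 (0.99). Ranked over the 30 single arrays instead, the same genes came 1, 17 and 3 for OLEO3, 1, 9 and 6 for AT3G01570 and 1, 72 and 11 for AT3G18570. They came 1, 3 and 2 for AT2G25890 and 1, 3 and 4 for AT2G47780.

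Other genes listed for lipid droplet proteins were lower in part in fus3-3 and lec1-1. The lists were compiled from background knowledge, with earlier results of these data known, so the shares beside them are no independent test. A listed gene counts as measured where a probe set was named to it alone. Since 8730 probe sets have no gene name here, others may be on the array. Of 22 listed, 6 were measured. In fus3-3, 2 of the 6 were lower at 8 DAF, against 4.25% of all genes, and 4 at 12 DAF, against 11.5%, with medians of −0.33 and −2.07. In lec1-1, 2 were lower at 8 DAF, against 5.77%, and 3 at 12 DAF, against 9.93%, with medians of −0.21 and −0.88. In lec2-1, 1 was higher and 1 lower at 8 DAF, against 1.60% and 1.08%. At 12 DAF limma called 0 of 6 there, against 6.39% of all genes, with 2 at an unadjusted p below 0.05. AT3G05500 fell in fus3-3 (−1.33 ± 0.11 at 8 DAF and −2.32 ± 0.11 at 12 DAF) and in lec1-1 (−1.57 ± 0.07 and −1.58 ± 0.07). AT5G16460 fell in fus3-3 by 1.40 ± 0.30 at 8 DAF and by 4.52 ± 0.30 at 12 DAF, in lec1-1 by 2.25 ± 0.21 and by 2.45 ± 0.21, and in lec2-1 at 8 DAF by 1.11 ± 0.21. AT4G18920, near the low end of the scale in both fus3-3 groups and in Col-0 at 8 DAF, was lower at 12 DAF in fus3-3 (−6.18 ± 0.19) and lec1-1 (−2.29 ± 0.24) and higher in lec2-1 at 8 DAF (1.59 ± 0.24). Like AT2G25890 and AT3G18570, it rose with age in Col-0 (7.21 ± 0.19) and WS (5.62 ± 0.24) and was not called in fus3-3 (0.88 ± 0.19). AT5G16550 fell in fus3-3 at 12 DAF (−1.83 ± 0.26), and AT1G67360 and AT4G10790 were not called in any mutant comparison. None of the 6 measured genes rose in fus3-3 or lec1-1 against the wild type of the same age, where AT2G47780 did.

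Of 42 genes listed for oil synthesis, 6 were measured, and those called in a mutant were lower. In lec1-1, 5 of the 6 fell at 8 DAF (5.77% of all genes) and 4 at 12 DAF (9.93%), with medians of −1.69 and −1.95. In fus3-3, 1 fell at 8 DAF (4.25% of all genes) and 4 at 12 DAF (11.5%), with medians of −0.68 and −2.11. In lec2-1 limma called 0 at 8 DAF (2.68% of all genes), with 3 at an unadjusted p below 0.05, and 2 fell at 12 DAF (1.32% of all genes). FaTA, an acyl-ACP thioesterase that releases fatty acids for export from the plastid, fell in lec1-1 by 1.95 ± 0.16 at 8 DAF and by 4.32 ± 0.16 at 12 DAF. In fus3-3 its change at 12 DAF was −3.82 ± 0.17. AT4G13050 fell in fus3-3 (−3.03 ± 0.61 at 8 DAF, −3.10 ± 0.61 at 12 DAF) and lec1-1 (−2.04 ± 0.12 and −2.47 ± 0.12). AT3G44830 was not called in fus3-3 at 8 DAF (0.24 ± 0.24) and fell at 12 DAF (−3.90 ± 0.24). AT1G24360 fell in lec1-1 by 1.42 ± 0.08 at both ages. Of 18 genes listed for oil mobilisation, 5 were measured, with 1 call among them in the 6 comparisons of a mutant with its wild type. In these, 2.68% to 23.4% of all genes were called. The call was ICL, isocitrate lyase, an enzyme of the glyoxylate cycle. ICL fell in lec1-1 at 8 DAF (−1.42 ± 0.15), where 5.77% of all genes were lower.

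**Figure D4:**
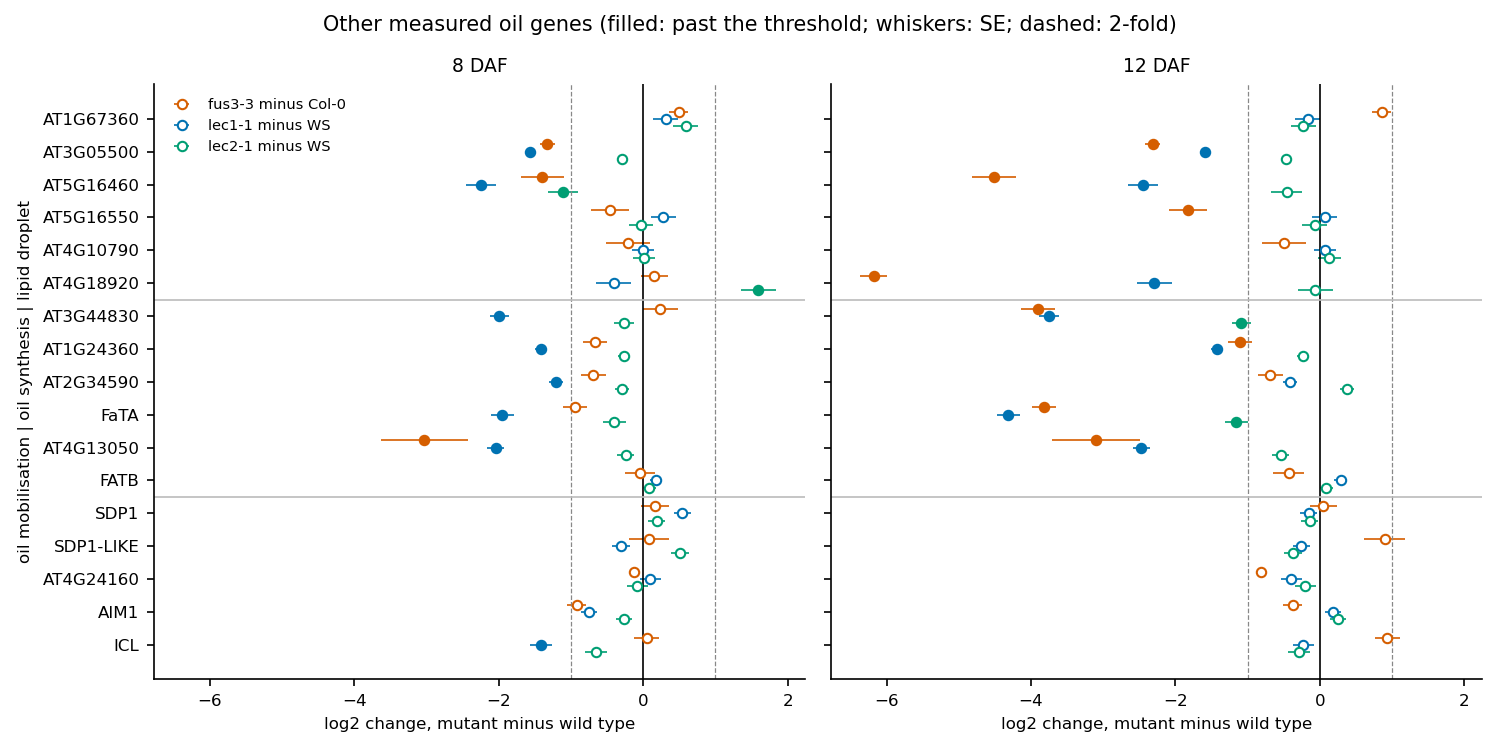
Log2 change, mutant minus wild type (horizontal axis), of the measured genes listed for other lipid droplet proteins, oil synthesis and oil mobilisation, at 8 DAF and 12 DAF, with filled points past the threshold, SE whiskers and dashed lines at 2-fold. At 12 DAF all filled points of fus3-3 and lec1-1 lie left of −1, down to −6.18 for AT4G18920, and the oil mobilisation genes have none.

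Among markers of other seed and fruit tissues, MPC and ALC were called in mutants at 12 DAF. Of all genes, 11.9% were called higher at that age in fus3-3, 10.4% in lec1-1 and 5.08% in lec2-1. Of 11 endosperm markers 3 were measured, and MPC, maternally expressed PAB C-terminal, rose at 12 DAF in fus3-3 (3.05 ± 0.15) and lec1-1 (3.39 ± 0.33), the groups with the lowest OLEO3 and the highest AT2G47780. AGL62 and IKU2, the other measured markers, stayed between 2.38 and 2.81 in every group mean, at the low end of the scale. The summed endosperm signal at 12 DAF was 5.65 to 6.30 in fus3-3 and 5.63 to 6.91 in lec1-1. In lec2-1 it was 4.26 to 4.89, in Col-0 4.14 to 4.17 and in WS 4.25 to 4.33. Over all groups of 8 DAF it was 4.05 to 4.18. At the sums of 8 DAF and of the wild types, MPC too was near the low end of the scale. The sums of 8 DAF therefore cannot compare endosperm content between groups, and the MPC rises depend on how background was corrected. Of 6 silique wall markers only ALC (ALCATRAZ) was measured; it rose at 12 DAF in fus3-3 (1.67 ± 0.26), lec1-1 (2.06 ± 0.19) and lec2-1 (1.57 ± 0.19), reaching 4.94 to 5.70 against 3.21 to 4.15 in the wild types. In lec2-1 no oleosin was called at that age. Of 12 seed coat markers 3 were measured, and 1 of them, AT3G50990, fell in fus3-3 at 8 DAF (−2.06 ± 0.29), against 4.25% of all genes. The summed signal of the 3 at 8 DAF was 12.40 to 12.56 in Col-0 and 11.86 to 12.45 in fus3-3. In the WS background it was 11.19 to 11.34 in WS, 11.715 to 11.87 in lec1-1 and 11.29 to 11.63 in lec2-1. At 12 DAF it was 10.37 to 10.60 in Col-0 and 10.08 to 10.76 in fus3-3. There it was 9.60 to 9.72 in WS, 9.77 to 9.99 in lec1-1 and 9.24 to 9.60 in lec2-1. The sum in lec1-1 thus lay above that in WS at both ages. None of the 9 listed tapetal oleosins was measured. The part of these markers in the oleosin and AT2G47780 results was not tested.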

How the data were processed

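Total RNA of 30 seed samples was labelled with biotin and hybridised to Affymetrix arrays, per the labels' protocols. The deposited values are log2 signals of 22810 probe sets, made by the authors with GCOS 1.3 followed by GCRMA as the submitters' processing notes list them; no genome build or GCRMA version is named in the sources used here. Probe sets were named through the platform annotation and a TAIR10.1 gene table: 13513 had 1 gene, 503 several and 8730 none, and 64 controls were left out. For each gene the probe set with the highest mean was kept. limma 3.58.1 in R 4.3.3 fitted 1 mean for each group, the 12 Col-0 and fus3-3 arrays apart from the 18 WS, lec1-1 and lec2-1 arrays; the comparisons across both used all 30. Adjusted p-values are Benjamini-Hochberg over 13356 genes, and the fits were tested on simulated data. The number of arrays limits the precision. Named were the members, all measured genes listed for other lipid droplet proteins, up to 4 called genes with the largest change among the oil synthesis and oil mobilisation genes, marker genes called in a mutant, and the 3 genes most like each member. The members and lists were chosen with earlier results of these data known. Replicate numbers appeared to pair samples in fus3-3 at 12 against 8 DAF, where deviations of same-numbered arrays correlated at 0.246, 0.218 and 0.447. In every other comparison some of these correlations were near 0 or negative, as in WS at 12 against 8 DAF (0.0583, 0.03 and 0.0227). The source of the correlations was not tested. Alternatives were normalization, filters, variance models, thresholds, arrays in the fit and left-out arrays. Figures used matplotlib 3.10.9.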

Additional observations from a re-analysis of the deposited data

Results flagged for a closer look

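These results stood out because the change from 8 to 12 DAF differed between a mutant and its wild type by a test of that difference. Against Col-0, the change in fus3-3 differed by −1.45 for OLEO3, −2.35 for AT3G18570 and −3.29 for AT2G25890 (log2, limma interaction). The OLEO3 difference was close to the threshold (limma adjusted p = 0.0496). It was not called with a robust prior variance (0.054) or in 9 of the fits that each left out 1 array. In AT2G25890 the fus3-3 seeds began above Col-0 and ended below it, whereas in OLEO3 and AT3G18570 they were below at both ages. Against WS, the change in lec1-1 differed by −1.01 for AT2G25890 and by 1.46 for AT2G47780, and the change in lec2-1 by 3.74 for AT2G47780. The AT2G25890 difference in lec1-1 was under 2-fold in 6 fits that left out 1 array. OLEO3 in lec1-1, at −0.99, lay just short of the 2-fold minimum and so is not among these results. No group had the 4 arrays that a search for single outlying arrays needs.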

How the results depend on the processing

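Of 2110 values of the members under alternatives, 2007 kept their direction and their side of the threshold, 40 lost a call, 34 gained one and 29 changed sign, all 29 among values that were not called. Called members in fus3-3 against Col-0 at 8 DAF numbered 2 rather than 4 with only the arrays compared. Without the fold minimum the counts were 3 in lec2-1 against WS at 8 DAF and 2 at 12 DAF, 5 in lec2-1 with age, 4 in lec1-1 against lec2-1 at 8 DAF, 2 for WS against Col-0 at 8 DAF and 1 at 12 DAF, and 4 and 2 for the age changes of lec1-1 and lec2-1 against that of WS. Counts over all genes were 1.36 to 5.78 times as high without it, so the shares printed above do not apply to these member counts. The count for the fus3-3 against the lec1-1 effect at 12 DAF was 0 at an adjusted p below 0.01 and 0 with the Col-0 arrays of 12 DAF averaged, with 1 at an unadjusted p below 0.05 in the limma fit.

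Leaving out 1 array at a time gave 3 to 4 called members in fus3-3 at 8 DAF, 1 to 2 in lec2-1 at 8 DAF, 2 to 3 with age in Col-0 and in fus3-3, 3 to 4 with age in lec1-1, 2 to 4 and 1 to 3 for the age changes of fus3-3 and lec1-1 against their wild types, 2 to 3 for lec1-1 against lec2-1 at 8 DAF, and 0 to 1 for WS against Col-0 and for the fus3-3 against the lec1-1 effect at 12 DAF; the other counts did not move.

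Signs changed for AT3G01570 in fus3-3 with age (−0.049 after quantile normalization; −0.18 to 0.19 leaving out 1 array), in lec2-1 against WS at 12 DAF (0.090 after it; −0.055 to 0.043) and in WS with age (0.20 after centring on 6 reference genes; −0.11 to 0.012). Centring also turned AT3G18570 in fus3-3 with age (0.021; −0.41 to 0.14), AT2G25890 in lec1-1 against WS at 8 DAF (0.0095) and against lec2-1 (0.14). For the fus3-3 against the lec1-1 effect at 8 DAF centring gave −0.17 for AT3G01570 (−0.025 to 0.31 leaving out 1 array) and −0.26 for AT2G47780 (−0.10 to 0.14), and at 12 DAF −0.067 for OLEO3, which was −0.0033 after quantile normalization (−0.19 to 0.45); leaving out 1 array also turned AT3G01570 (−0.28 to 0.077) and AT2G47780 (−0.23 to 0.99) at 12 DAF. It turned AT2G25890 (−0.11 to 0.0095) and AT2G47780 (−1.17 to 0.046) for WS against Col-0 at 12 DAF, and AT2G25890 for the age change of lec2-1 against WS (−0.11 to 0.050). Centring shifted every lec1-1 change at 8 DAF by 0.31 and every WS change with age by 0.26. The reference genes were not all stable themselves. Of the 6, 1 was called lower with age in Col-0 and 1 in lec1-1 against WS at 12 DAF. Causes were not tested.

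The replicate block changed none of the 110 member values' calls and none of the 22 counts. In fus3-3 with age, where same-numbered arrays correlated, OLEO3 kept a limma adjusted p of 0.0012 and AT2G47780 of 0.011. With only the arrays compared, chosen after seeing the data, these were 0.022 and 0.0046. Over all genes, counts without the fold minimum were 1.36 to 5.78 times as high, and with all probe sets 1.89 to 2.13 times. Of 1266 counts for the 3 lists of other oil genes under alternatives, 77 moved by over 1.5 times. Each member had 1 probe set, so no second probe set could be tried. AT2G47780 in the wild types is limited by signal near background.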
